A study of Homo sapiens with 4 samples.

Results

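Sub-polysome RNA of MDA-MB-231 cells, an established human triple-negative breast cancer line, was compared between 2 METTL3 genotypes. The cells had been depleted of their own METTL3 by a lentiviral shRNA and reconstituted by lentivirus with wild-type METTL3 (WT) or with METTL3 K177Q, in which glutamine replaces a lysine to mimic its acetylation. Both cultures were grown in DMEM with fetal bovine serum, and both received cycloheximide shortly before lysis, which holds ribosomes on their mRNAs. Lysates were spread over a sucrose gradient, and the fractions with free ribosomal subunits and single ribosomes were pooled as sub-polysome RNA, poly(A)-selected and sequenced as strand-directional libraries. The K177Q sub-polysome library and the WT sub-polysome library, both labelled replicate 2, were used, which is 2 of the 4 libraries listed for the study. The table holds 28198 genes, of which 10929 were kept because their FPKM (fragments per kilobase of transcript, scaled to the fragments of the library) averaged 1 or more across these 2 libraries. The gene just inside the minimum was AGMAT, with 0.9812 FPKM in WT and 1.0191 FPKM in K177Q cells, and the gene just outside was PRKCH, with 1.0434 FPKM and 0.9562 FPKM.

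METTL3 is the catalytic subunit of the complex that writes N6-methyladenosine (m6A) on mRNA, and it has also been tied to translation in the cytoplasm. In polysome profiling, an mRNA read by many ribosomes sediments in the polysomes, while one bound by no ribosome, by subunits or by a single ribosome stays in the lighter sub-polysome fractions. The sub-polysome level of an mRNA therefore reflects both how much of that mRNA the cell holds and how little of it is engaged by several ribosomes. Ribosomal protein mRNAs and other mRNAs with a 5′ terminal oligopyrimidine (TOP) tract are known to move in and out of polysomes together.

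Only 1 library for each genotype was analysed here, because the table's columns numbered replicate 1 match no listed sample. No value below therefore has a replicate error, no test was made, and the ratios compare 2 libraries rather than 2 genotypes. Ratios are log2((K177Q + 0.1)/(WT + 0.1)) in FPKM. A gene is said to have risen or fallen where its ratio passed 1.5-fold, which describes these libraries only, and by that rule 4.28% of the kept genes rose and 2.87% fell. FPKM summed to 899550 in the WT and 1037594 in the K177Q library. Rescaling both to the same total (TPM) therefore lowers log2 ratios by about 0.21, and by slightly less at low values, where the added 0.1 FPKM weighs more. In the polysome libraries TPM raises the ratios instead, moving the median over all kept genes from -0.023 to 0.068. The depth was estimated from genes at low values as about 27300000 fragments in the WT and 24000000 in the K177Q library. FPKM are relative within a library, so an RNA lower because fewer cells of a type hold it cannot be told apart from one lower in each cell.

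The labelled cell type was checked against marker genes. VIM, the intermediate filament of mesenchymal cells, stood at 676.7 FPKM in WT and 692.1 FPKM in K177Q cells, and all 10 mesenchymal-like markers of this line were kept. ESR1, the estrogen receptor, was at 0.00538 and 0 FPKM, PGR at 0 in both libraries, and FOXA1 at 0.01182 and 0.04067 FPKM. Some luminal epithelial genes were nevertheless present, led by SPDEF with 79.59 and 94.95 FPKM, and 5 of 9 luminal markers were kept, with a summed level of 143.6 FPKM in WT and 195.6 FPKM in K177Q cells. Of these, TFF1, a secreted trefoil factor, rose from 48.98 to 85.8 FPKM. The luminal markers did not move together, with 3 of the 5 kept above 0 and 2 below. GATA3 was the lowest, with 4.951 and 4.013 FPKM. Their median log2 ratio was 0.25 (0.048 with TPM), and -0.057 in polysomes. Leukocyte markers summed to 26.08 FPKM in WT and 39.29 FPKM in K177Q cells. Almost all of that was CD14, a lipopolysaccharide co-receptor, with 24.86 and 38.1 FPKM, while PTPRC stood at 0.03409 and 0.01295 FPKM, and CD3E at 0 in both. LYZ, the other leukocyte marker kept, had 1.187 and 1.181 FPKM. Endothelial markers summed to 1.912 and 2.469 FPKM, led by PECAM1 at 1.134 and 1.806 FPKM, and 0 of 4 fibroblast markers were kept. CD14 and PECAM1 passed 1.5-fold with the deposited FPKM but not with TPM.

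METTL3 itself (GRCh38, chr14:21498138-21511340) was lower in the K177Q library, with 9.387 FPKM in WT and 5.073 FPKM in K177Q cells, a log2 ratio of -0.88 with an estimated counting error of 0.113. Reads from the reconstituting construct and from the endogenous gene cannot be told apart in a gene-level value, and the K177Q codon cannot be checked from it. The other subunits of the m6A methyltransferase complex were also mostly lower. ZC3H13, its zinc finger subunit, fell from 1.727 to 1.057 FPKM. VIRMA, the scaffold, had 3.204 and 2.496 FPKM, WTAP, the regulatory subunit, 29.18 and 23.07 FPKM, and METTL14, the partner of METTL3 in the catalytic core, 2.796 and 2.432 FPKM. Over the 8 genes of the complex the median log2 ratio was -0.27 (-0.47 with TPM), with 7 below 0, and RBM15, an RNA-binding adaptor, was the exception at 3.01 and 3.212 FPKM. Among 12 m6A readers and erasers the median was -0.15 (-0.36 with TPM). FMR1, an RNA-binding protein that recognizes methylated transcripts, was the one that fell, from 5.599 to 3.667 FPKM. The demethylase ALKBH5 had 88.55 and 93.46 FPKM, the demethylase FTO 3.012 and 2.504 FPKM, and the reader YTHDF2, which directs transcripts to decay, 27.4 and 24.35 FPKM.

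Most sub-polysome RNAs differed little between the WT and K177Q libraries. In K177Q cells 468 of the 10929 genes (4.28%) rose by 1.5-fold or more, 314 (2.87%) fell by as much, and 10147 (92.8%) lay within 1.5-fold. With TPM the split turned, with 222 higher and 1031 lower, because every ratio is shifted down together. The log2 ratios had a median of -0.0014 (-0.205 with TPM), quartiles of -0.199 and 0.197, and an SD of 0.374. Of the 10929 genes, 5441 lay above 0 and 5488 below with the deposited FPKM, and 2670 and 8259 with TPM. Counts above or below 0 in the gene lists are to be read beside these. Rises and falls were unevenly placed along abundance. Among the 5123 genes averaging 10 FPKM or more, 141 rose and 18 fell with the deposited FPKM, a split that was not counted with TPM. The spread narrowed with abundance, from an SD of 0.517 at 1 to 2 FPKM to 0.218 above 50 FPKM, where the median estimated counting errors were 0.165 and 0.0275.

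**Figure D1:**
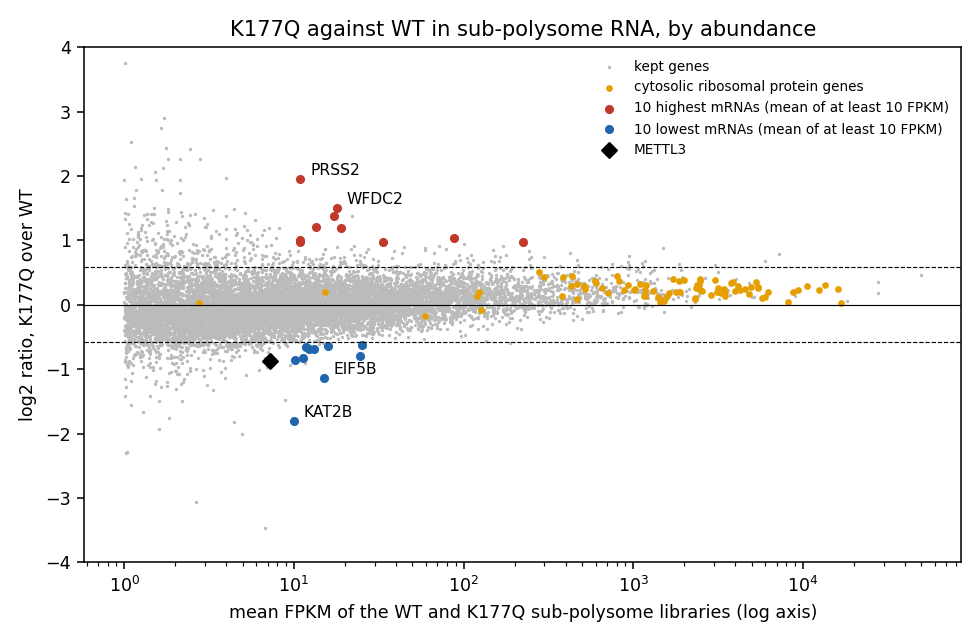
Log2 ratio of sub-polysome FPKM, K177Q over WT, against the mean FPKM of the 2 libraries (log axis), with 1 point for each kept gene and dashed lines at 1.5-fold; 5 genes beyond the vertical axis are not drawn. Cytosolic ribosomal protein genes (orange) form a narrow band around a median of 0.23 (0.025 with TPM) at high abundance, and METTL3 (diamond) lies at -0.88.

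By rule, the 10 mRNAs with the highest ratios at a mean of 10 FPKM or more were PRSS2, WFDC2, SVIP, ZG16B, IL24, KRT81, EBI3, TSPAN8, TMEM35B and HLA-DRA. PRSS2, a trypsinogen (chr7:142770970-142774560), rose from 4.42 FPKM in WT to 17.46 FPKM in K177Q cells, a log2 ratio of 1.96 with an estimated counting error of 0.166. WFDC2, a secreted whey acidic protein, rose from 9.328 to 26.54 FPKM. SVIP, a small inhibitor of endoplasmic reticulum associated degradation, rose from 9.455 to 24.89 FPKM. All 3 therefore at least doubled between the libraries. ZG16B, a secreted lectin, rose from 8.116 to 18.87 FPKM, and IL24, a cytokine of the interleukin-10 family, from 11.46 to 26.41 FPKM. EBI3, the shared subunit of interleukins 27 and 35, rose from 7.211 to 14.63 FPKM. TSPAN8, a tetraspanin of the cell surface, rose from 7.233 to 14.36 FPKM. KRT81, a hair keratin, was the second most abundant of the group and rose from 57.33 to 118.4 FPKM. HLA-DRA, the alpha chain of a class II histocompatibility antigen, was the most abundant and rose from 150.7 to 295.2 FPKM, and TMEM35B, a membrane protein, rose from 22.5 to 44.18 FPKM. PRSS2 and KRT81 have near-identical relatives, and how their shared reads were assigned is not given in the sources used here. All 10 also passed 1.5-fold with TPM. In the polysome libraries 9 of these 10 mRNAs were higher in K177Q cells as well. SVIP was the exception, with 3.537 FPKM in WT and 2.079 FPKM in K177Q polysomes.

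With the deposited FPKM, falls among abundant mRNAs were fewer and mostly smaller. The median log2 ratio was 1.121 over the 10 highest mRNAs and -0.740 over the 10 lowest, but 0.916 and -0.945 with TPM. KAT2B (chr3:20040446-20154404), which encodes the lysine acetyltransferase PCAF, fell most, from 15.65 FPKM in WT to 4.388 FPKM in K177Q cells, a log2 ratio of -1.81 with an estimated counting error of 0.0747. Polysome KAT2B was lower too, with 10.22 FPKM in WT and 3.37 FPKM in K177Q cells. EIF5B, the GTPase that joins the ribosomal subunits at the end of initiation, fell from 20.71 to 9.378 FPKM. With the deposited FPKM these were the only mRNAs of the 10 to fall by more than 2-fold, which does not hold with TPM. TCOF1, the nucleolar protein treacle, fell from 13.07 to 7.14 FPKM. LUC7L3, a spliceosome-associated protein, fell from 14.48 to 8.143 FPKM, and DDX42, a helicase of the spliceosome, from 14.45 to 9.113 FPKM. NFIC, a transcription factor, fell from 16.16 to 10.0 FPKM, and MDFIC, a regulator of transcription factors, from 15.17 to 9.393 FPKM. MTHFD1, an enzyme of folate metabolism, fell from 19.36 to 12.42 FPKM, YAE1, an assembly factor for an iron-sulfur protein, from 30.48 to 19.83 FPKM, and CCDC34, a coiled-coil protein, from 31.32 to 18.03 FPKM. All 10 were also lower in K177Q polysomes, and all 10 passed 1.5-fold with TPM. METTL3, EIF5B, MTHFD1 and IL24 each overlap exons of a gene on the opposite strand (TOX4, REV1, ZBTB25 and FCMR).

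**Figure D2:**
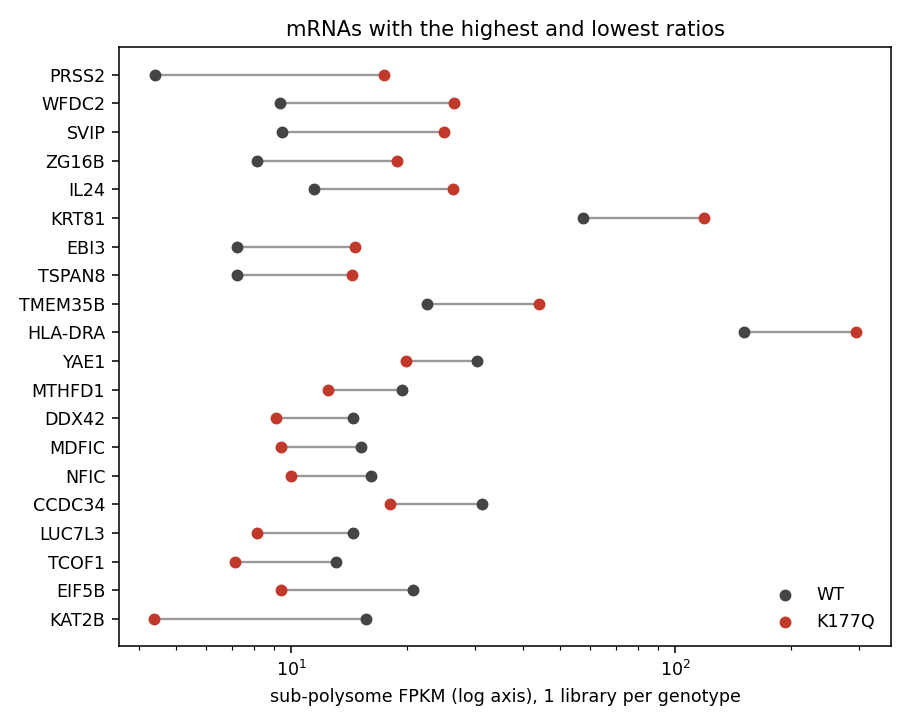
Sub-polysome FPKM (log axis) in the WT (grey) and K177Q (red) library for the 10 mRNAs with the highest and the 10 with the lowest ratios at a mean of 10 FPKM or more. PRSS2 spans 4.42 to 17.46 FPKM and KAT2B 15.65 to 4.388 FPKM.

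Most ribosomal protein mRNAs had slightly higher deposited values in K177Q cells. Of 88 cytosolic ribosomal protein genes in the table, 84 were kept, and 82 of these had a ratio above 0 with the deposited FPKM and 50 with TPM. Over all 10929 kept genes, 5441 were above 0 with the deposited FPKM and 2670 with TPM. Of the 84 ribosomal protein genes, 0 passed 1.5-fold. Their median log2 ratio was 0.23 (0.025 with TPM), with quartiles of 0.150 and 0.310, against -0.0014 (-0.205 with TPM) over all genes. All genes are not matched to them on abundance, and the highest of 10 bins by mean FPKM had a median of 0.17. In the polysome libraries 83 of the same 84 genes were lower in K177Q cells, with a median of -0.39. They made up 26.12% of all FPKM in WT and 26.42% in K177Q cells. RPL22, a protein of the large subunit, was the highest by ratio, with 230.7 and 329.8 FPKM. Its paralog RPL22L1 was the lowest, with 63.08 and 55.78 FPKM. The most abundant, RPS21, hardly differed, with 16542 and 16932 FPKM, while RPS29 had 14775 and 17543 FPKM.

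A TOP tract is a C at the first transcribed base followed by an unbroken run of C and T. It was searched for, on the transcript strand only, as a C at position 1 followed by at least 4 bases that are each C or T, at the starts that RefSeq lists on GRCh38.p14 for genes with a single listed start. The tract was found at 354 of 6014 kept mRNAs (5.89%) and at 42 of 56 ribosomal protein genes (75%). The first 20 bases are shown for 5 ribosomal protein and other TOP mRNAs that carry a tract, and for KAT2B and EIF5B, which fell most among mRNAs averaging 10 FPKM or more and carry none. Capitals mark the tract. The starts lie at chr1:6199576-6199595 on the minus strand for RPL22, chr5:82278335-82278354 on the minus strand for RPS23, chr17:74203678-74203697 on the plus strand for RPL38, chr13:45341164-45341183 on the minus strand for TPT1, chr6:73521013-73521032 on the minus strand for EEF1A1, chr3:20040446-20040465 on the plus strand for KAT2B and chr2:99337389-99337408 on the plus strand for EIF5B.
RPL22: CCTTTCTaactccgctgccg
RPS23: CTCTTTCgctcaggcccgtg
RPL38: CTTTTTCgtccttttccccg
TPT1: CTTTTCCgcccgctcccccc
EEF1A1: CTTTTTCgcaacgggtttgc
KAT2B: actcggcgcctcctgccgtg
EIF5B: acaccatatgtgtcctgttc

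RPS23 had 370.7 FPKM in WT and 507.2 FPKM in K177Q cells, and RPL38 had 721.4 and 930 FPKM. Among ribosomal protein genes with a single listed start, the median log2 ratio was 0.23 (42 genes) with a tract and 0.22 (14 genes) without. Outside the ribosomal protein and other known TOP genes, 303 mRNAs with a tract had a median of 0.020 and 5645 without had -0.014. The gap between ribosomal protein genes and all genes was wider than that between mRNAs with and without a tract. Neither gap was matched on abundance or coding length. The highest of 10 bins by mean FPKM had a median of 0.17, and abundant mRNAs with short coding regions had 0.13. A median above that of all genes was therefore not particular to ribosomal protein genes. What a tract contributes to these ratios was not tested.

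The 18 other TOP mRNAs had a median of 0.10 (-0.11 with TPM), 12 of them above 0 (2 with TPM) and 0 past 1.5-fold. TPT1, the translationally controlled tumor protein, was highest with 265.4 and 361.3 FPKM. EEF1A1, the elongation factor that delivers aminoacyl-tRNA, had 2011 and 2106 FPKM, RACK1, a ribosome-bound scaffold, 1890 and 2196 FPKM, and EIF4B, a helicase cofactor, 38.12 and 32.14 FPKM. For 17 of the 18 the polysome ratio was below 0 with the deposited FPKM, with a median of -0.25 (-0.16 with TPM).

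Initiation factor mRNAs were lower or close to the median of all genes. The 12 kept subunits of eIF3, the scaffold of initiation, had a median of 0.04 (-0.16 with TPM). EIF3H, the subunit the study links to METTL3, had 48.69 and 47.06 FPKM, EIF3B 62.47 and 56.13 FPKM, and EIF3A 10.37 and 7.44 FPKM. None of the 12 passed 1.5-fold with the deposited FPKM and 1 was lower by as much with TPM. In polysomes all 12 were below 0 with the deposited FPKM, with a median of -0.19. With TPM the polysome median was -0.096 and 4 of the 12 were above 0. Of 28 other initiation and cap-binding genes, 20 lay below 0, the median was -0.17 (-0.37 with TPM), and EIF5B was the 1 that fell with the deposited FPKM. With TPM all 28 lay below 0, as did 8259 of all 10929 kept genes, and 3 of the 28 passed 1.5-fold downward. EIF4G2, a scaffold for cap-independent initiation, had 118.4 and 85.92 FPKM, EIF5, which activates the GTPase of eIF2, 12.38 and 8.835 FPKM, and NCBP1, a nuclear cap-binding subunit, 4.117 and 3.382 FPKM. EIF5A, an elongation factor despite its name, had the highest ratio, with 1284 and 1466 FPKM. The 20 aminoacyl-tRNA synthetases had a median of -0.14 (-0.35 with TPM), 17 of them below 0.

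Where the values of respiratory chain mRNAs lay against 0 depended on the scale. Of 76 subunits, 69 had a ratio above 0 with the deposited FPKM and 29 with TPM, against 5441 and 2670 of all 10929 kept genes. The median of the 76 was 0.17 (-0.03 with TPM), beside 0.17 in the highest of 10 bins of genes by mean FPKM. Of the 76, 0 passed 1.5-fold (1 lower with TPM). In polysomes the median was -0.18 (-0.083 with TPM). COX5A, a subunit of cytochrome c oxidase, had 117.5 and 164.9 FPKM, COX6A1 2276 and 3022 FPKM, and NDUFA5, a subunit of complex I, 11.87 and 9.093 FPKM. The 78 mitochondrial ribosomal protein genes had a median of 0.09 (-0.12 with TPM), with MRPL33 at 742.8 and 1100 FPKM and MRPL19 at 6.195 and 4.287 FPKM. The 18 selenoproteins, which use the UGA codon for selenocysteine, had a median of 0.22 (0.01 with TPM). Among them SELENOW had 201.4 and 298.6 FPKM, GPX1, a glutathione peroxidase, 1562 and 1842 FPKM, and TXNRD3, a thioredoxin reductase, fell from 1.509 to 0.8658 FPKM. FTL and FTH1, the ferritin chains, had 2628 and 3730 FPKM and 1124 and 1421 FPKM, and HMOX1, heme oxygenase, rose from 6.547 to 10.42 FPKM, though not past 1.5-fold with TPM, while IREB2, an iron regulatory protein, had 4.066 and 3.001 FPKM. Over the 10 iron genes the median was 0.13 (-0.07 with TPM).

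Housekeeping groups lay near the median of all genes. Proteasome subunits (37 kept, median 0.01, -0.19 with TPM) ranged from PSMD6 at 44.46 and 35.68 FPKM to PSMB1 at 180.6 and 223.1 FPKM. Heat shock proteins and chaperonins (24 kept) had a median of -0.0039 (-0.21 with TPM), with the small heat shock protein HSPB1 at 709.2 and 871.9 FPKM. Glycolysis genes (19 kept) had a median of 0.03 (-0.18 with TPM), with GAPDH at 3514 and 3889 FPKM and the glucose transporter SLC2A1 at 92.81 and 126.2 FPKM. Cholesterol synthesis genes (22 kept) had a median of 0.09 (-0.11 with TPM), and tubulins (13 kept) had 0.12 (-0.09 with TPM). No gene of the proteasome, chaperone, glycolysis and cholesterol lists passed 1.5-fold, and TUBB2B, a beta-tubulin, rose from 1.233 to 1.957 FPKM, though not past 1.5-fold with TPM.

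Genes for splicing, microtubule motors and DNA replication were on the lower side, in a comparison not matched on abundance or length. Over all 10929 kept genes 5488 lay below 0, and 8259 with TPM. Among mRNAs, the longest of 5 bins by coding length had a median of -0.15. Of 33 hnRNP and SR splicing factors, 31 had a ratio below 0, with a median of -0.27 (-0.48 with TPM), and 1 fell (5 with TPM). HNRNPH1 had 68.54 and 47.63 FPKM, HNRNPD 113.1 and 81.26 FPKM, and SRSF2 121.7 and 97.31 FPKM. HNRNPH2 was listed at 6.987 and 1.906 FPKM, but it shares exons with the readthrough gene RPL36A-HNRNPH2, which had 32.71 and 30.74 FPKM, and the log2 ratio of their sum was -0.28. Kinesins and dynein heavy chains, the motors of microtubules, had 20 of 23 genes below 0 and a median of -0.29 (-0.49 with TPM), and 1 fell (9 with TPM). KIF7, a kinesin of Hedgehog signalling, fell from 1.746 to 0.8475 FPKM, and KIF5B, conventional kinesin, had 20.83 and 16.9 FPKM. DNA replication and mitosis genes had 30 of 35 below 0, a median of -0.17 (-0.37 with TPM) and 0 past 1.5-fold, which became 4 lower with TPM. Nuclear pore genes (31 kept) had a median of -0.12 (-0.31 with TPM). Nonsense-mediated decay factors (16 kept) had -0.12 (-0.32 with TPM), with UPF3B falling from 5.327 to 3.259 FPKM, the 1 that fell (3 with TPM). Among 205 zinc finger genes named ZNF the median was -0.12 (-0.31 with TPM), 5 rose (2.44%) and 10 fell (4.88%), which became 1 and 35 with TPM.

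**Figure D3:**
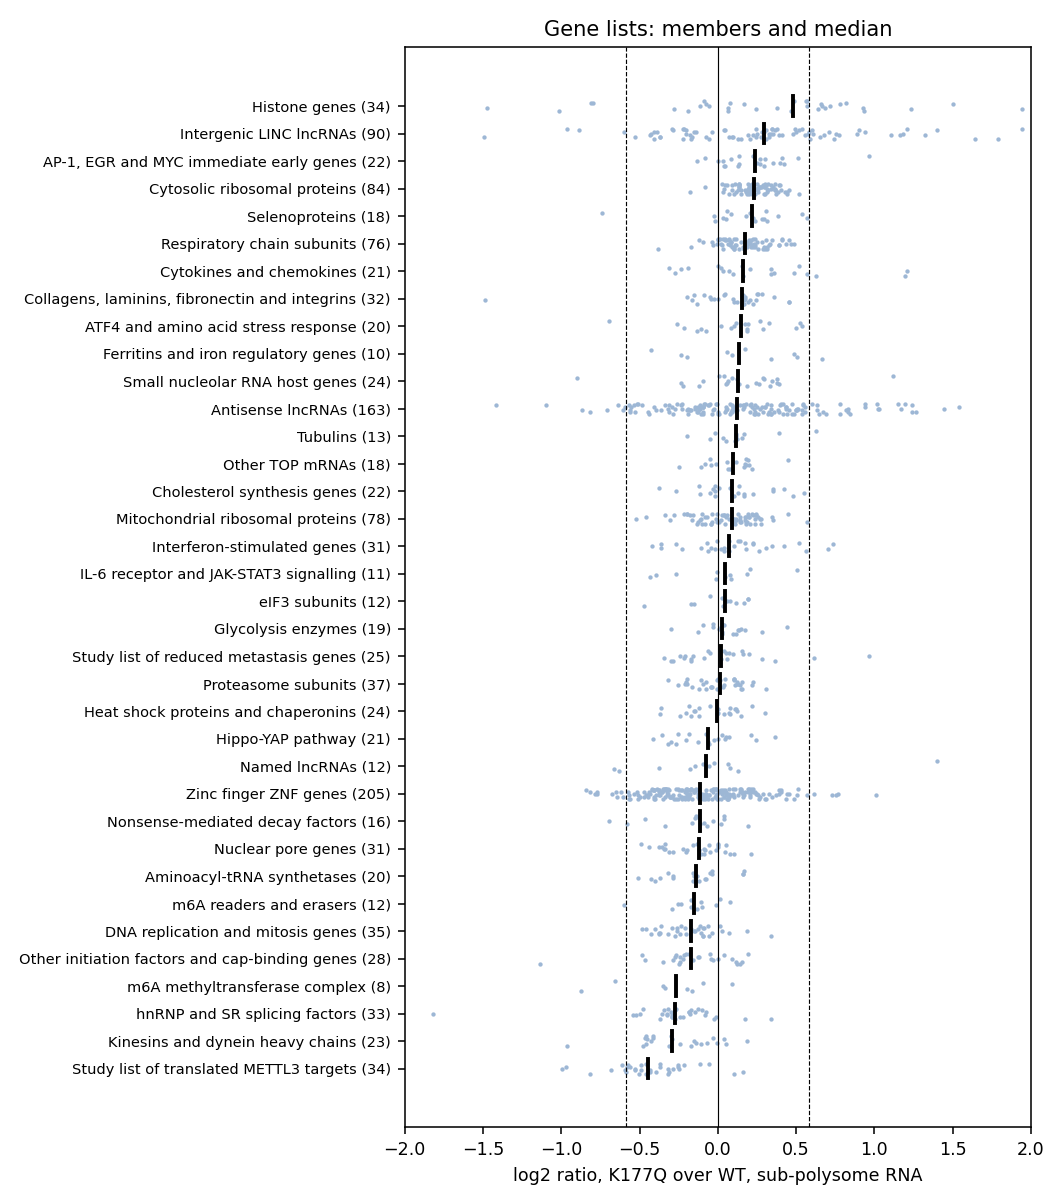
Log2 ratio of sub-polysome FPKM, K177Q over WT, for the kept members of each gene list with at least 8 of them, cell type markers aside (points, number kept in brackets) with the list median (bar) and dashed lines at 1.5-fold; 6 members beyond the axis are not drawn. Medians run from -0.45 (-0.64 with TPM) for the study's translated targets to 0.48 (0.28 with TPM) for histone genes, and those between 0 and 0.21 change sign with TPM.

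Abundance, length and base composition varied with the ratio. Genes were ranked by mean FPKM in 10 bins of equal size. From the lowest to the highest bin the median log2 ratio went from -0.10 to 0.17, and each is about 0.2 lower with TPM. In the highest bin, with the deposited FPKM, 42 genes rose while 1 fell. That gene, SRP9, a subunit of the signal recognition particle, had 226.8 FPKM in WT and 150.0 FPKM in K177Q cells and was singled out after its values were seen. Across 5 equal bins of mRNAs by coding length, from a median of 498 to 3176 bases, the median ratio went from 0.11 to -0.15, while in the polysome libraries it went from -0.14 to 0.06. Over 10290 mRNAs Spearman's rho of ratio and coding length was -0.313 in sub-polysome and 0.265 in polysome RNA. These are correlations across genes of the same libraries, and genes are not independent replicates. The order by length was the same within each class of abundance. When mRNAs were split in 3 by FPKM, the median in the lowest class was 0.0085 for short and -0.17 for long coding regions, and in the highest class it was 0.13 and 0.02. GC content of the transcript had a rho of 0.286 and mean FPKM a rho of 0.285, while the density of GGACT, the core of the m6A consensus on the transcript strand, had 0.091. Library preparation can favour transcripts by length or GC content, and its part in these ratios was not tested.

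**Figure D4:**
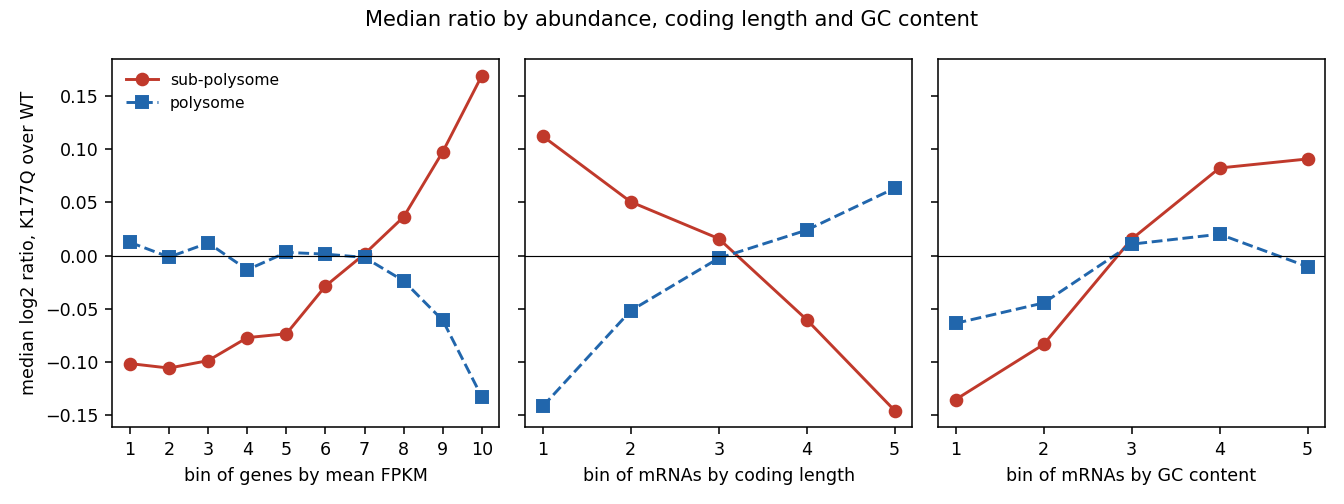
Median log2 ratio, K177Q over WT, in sub-polysome (red) and polysome (blue) RNA for 10 bins of genes by mean FPKM, 5 bins of mRNAs by coding length and 5 bins by GC content, numbered from low to high. The sub-polysome median climbs from -0.10 to 0.17 with abundance and goes from 0.11 to -0.15 with coding length. With TPM each sub-polysome point is about 0.2 lower.

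Long noncoding RNAs (lncRNAs) spread more widely than mRNAs. Of 482 kept lncRNAs, 89 rose (18.5%) and 39 fell (8.09%), against 363 (3.52%) and 262 (2.54%) of 10313 mRNAs. With TPM the split turned for both, with 63 lncRNAs higher and 71 lower and 148 mRNAs higher and 938 lower. Their median was 0.16 (-0.04 with TPM), and it was -0.26 in polysomes. LncRNAs are scarcer, and low values vary more, so the shares are not matched on abundance. LINC lncRNAs (90 kept) had a median of 0.29 (0.09 with TPM), with 23 higher and 6 lower (15 and 12 with TPM), and antisense lncRNAs (163 kept) had 0.12 (-0.08 with TPM), with 26 higher and 8 lower, a split that turned with TPM to 18 and 21. By rule, the 5 lncRNAs with the highest ratios at a mean of 5 FPKM or more were SLMO2-ATP5E (12.24 and 31.98 FPKM), LINC02582 (3.305 and 8.431 FPKM), IDH1-AS1 (4.275 and 9.917 FPKM), ZNF687-AS1 (3.983 and 8.161 FPKM) and MAILR (3.694 and 7.354 FPKM). SLMO2-ATP5E is a readthrough transcript of neighbouring coding genes, so its reads may be shared with them. IER3-AS1 rose from 81.12 to 139.5 FPKM, though not past 1.5-fold with TPM. It overlaps the exons of IER3 on the opposite strand, and whether counting used the strand is not given in the sources used here. LINC02585 was listed at 42.14 FPKM in WT and at 0 in K177Q cells, and at 0 in both polysome libraries. NEAT1, the architectural RNA of nuclear paraspeckles, fell from 16.04 to 10.08 FPKM, and MALAT1, a nuclear speckle RNA, fell from 1.69 to 1.056 FPKM. The list of named lncRNAs that holds NEAT1 (12 kept) had a median of -0.07 (-0.28 with TPM), with 1 higher and 2 lower. Its highest member, LINC-PINT, rose from 1.298 to 3.586 FPKM. SNHG21 fell from 15.12 to 8.078 FPKM, PP7080 from 8.849 to 5.264 FPKM, and LOC101928120 had 7.924 and 5.351 FPKM.

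For host genes of small nucleolar RNAs, whose spliced transcripts include many with TOP tracts, the side of 0 also depended on the scale. Of 24 kept, 19 had a ratio above 0 with the deposited FPKM and 10 with TPM, with a median of 0.13 (-0.08 with TPM), and all 24 were below 0 in polysomes, with a median of -0.60. SNHG32 had 1169 and 1486 FPKM in sub-polysome RNA, SNHG5 916.8 and 1192 FPKM, ZFAS1 502.2 and 651.7 FPKM, and GAS5 579.4 and 685 FPKM. SNHG26 rose from 0.6134 to 1.451 FPKM.

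Histone genes had a median of 0.48 (0.28 with TPM), with 13 of 34 higher and 4 lower (7 and 4 with TPM). Among the 41 gene lists this was the highest median of those with at least 8 kept members that are not cell type markers. H2BC5 rose from 54.97 to 85.69 FPKM and H2BC11 from 2.982 to 7.136 FPKM, while H3-3A, a replication-independent H3.3 gene, fell from 13.04 to 4.628 FPKM. The linker histone H1-10 was the most abundant, with 706.5 and 834.6 FPKM. H4C11 was listed at 0 in WT and at 5.449 FPKM in K177Q cells. Replicative histone mRNAs mostly lack a poly(A) tail and belong to near-identical copies, so their values in poly(A)-selected libraries are uncertain.

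Lists of signalling genes had small median shifts, with a few members past 1.5-fold. Of 22 AP-1, EGR and MYC immediate early genes, 20 had a ratio above 0 (12 with TPM), with a median of 0.24 (0.03 with TPM) and 0.28 in polysomes. EGR1, a zinc finger transcription factor, rose from 3.142 to 6.232 FPKM. IER3, an early response gene, had 3499 and 4609 FPKM, JUND 1195 and 1587 FPKM, and JUN 34.15 and 31.07 FPKM. Among 21 cytokines and chemokines (median 0.16, -0.05 with TPM), IL24, CCL5 and CXCL10 rose (2 of the 3 with TPM). CCL5 had 1.345 and 3.234 FPKM and CXCL10 2.689 and 4.211 FPKM, both near the minimum. CXCL8, the most abundant, had 432.1 and 442.1 FPKM, and IL11 285.5 and 361.6 FPKM. The 31 interferon-stimulated genes had a median of 0.07 (-0.13 with TPM), and the 2 that rose did not pass 1.5-fold with TPM. IFI6 rose from 122.4 to 204.3 FPKM and IFITM1 from 185.5 to 302.5 FPKM. In the IL-6 receptor and JAK-STAT3 list (11 kept, median 0.04, -0.16 with TPM) STAT3 had 17.45 and 17.4 FPKM, and SOCS1, a feedback inhibitor, 31.64 and 44.95 FPKM. Amino acid stress genes (20 kept) had a median of 0.15 (-0.06 with TPM), with their regulator ATF4 at 387.8 and 354.2 FPKM and the cystine transporter SLC7A11 falling from 1.286 to 0.7573 FPKM.

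Matrix and adhesion genes had a median of 0.15 (-0.05 with TPM) over 32 kept genes, and 0.35 in polysomes. ITGA5, the fibronectin receptor chain, had 53.47 and 73.43 FPKM, ITGA3 149.4 and 174.3 FPKM, and ITGB1 118.0 and 103.1 FPKM. LAMA4, a laminin chain, was the 1 gene that fell, from 2.422 to 0.7999 FPKM. The Hippo-YAP list (21 kept, median -0.06, -0.27 with TPM) ran from the transcription factor TEAD1 at 7.557 and 5.654 FPKM to the secreted target CCN1 at 1004 and 1290 FPKM.

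The genes the study followed for metastasis lay within 1.5-fold in sub-polysome RNA. The study reported lower IL6, NRP2 and CAV1 and higher ULK1 in K177Q cells, in RNA of whole cells and as protein. Sub-polysome RNA is only a part of the RNA of whole cells, so these values do not test that report. IL6 had 173.6 FPKM in WT and 194.1 FPKM in K177Q cells, CAV1, the coat protein of caveolae, 88.56 and 94.61 FPKM, NRP2, a semaphorin receptor, 2.262 and 2.181 FPKM, and ULK1, the kinase that starts autophagy, 2.985 and 2.636 FPKM. The study's list of transcripts with reduced expression was chosen on reduced m6A peaks, lower RNA-seq values in K177Q cells and a database of metastasis genes. Of its 25 kept genes, 2 rose (EGR1 and CD82, a tetraspanin, from 42.46 to 65.08 FPKM) and 0 fell, while with TPM 1 was higher. The list median was 0.02 (-0.18 with TPM).

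The study's list of translated METTL3 targets had the lowest median, -0.45 (-0.64 with TPM). Of its 60 genes, 34 were kept, 32 had a ratio below 0, and 7 fell (20.6%) while 0 rose. With TPM all 34 lay below 0, as did 8259 of all 10929 kept genes, and 20 of the 34 passed 1.5-fold downward. The study chose these genes for a higher ratio of polysome to sub-polysome RNA in K177Q cells of this experiment, so low sub-polysome values were favoured by the choice and are not independent evidence. MAST4, a kinase, fell from 1.997 to 0.9734 FPKM, and VPS8, a vesicle tethering factor, from 8.642 to 4.855 FPKM. CBL, a ubiquitin ligase for receptor kinases, fell from 4.472 to 2.886 FPKM. LPP, an adhesion protein, had 2.085 and 1.456 FPKM, PTPN14, a phosphatase that restrains YAP, 6.381 and 5.096 FPKM, and LARP1, a protein that binds TOP mRNAs, 24.8 and 19.87 FPKM. In polysomes 33 of the 34 were above 0, with a median of 0.25.

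Polysome values of the same genes are set beside these, as the most similar comparison of the series, and come from different libraries. With the deposited FPKM, 192 of 10667 genes kept in polysome RNA (1.8%) rose by 1.5-fold or more in K177Q cells and 257 (2.41%) fell by as much. Of the 353 genes that rose in sub-polysome RNA and were also kept there, 61 were higher and 19 lower in polysomes, with a median of 0.18. Of the 249 that fell, 20 were lower and 5 higher, with a median of -0.16. Over all 10308 genes kept in both, the polysome median was -0.02 with the deposited FPKM. Over the 10929 genes kept in sub-polysome RNA it was -0.023, and 0.068 with TPM. Some of the shifts above were therefore shared by both fractions, as for KAT2B, PRSS2 and HLA-DRA, while the values of ribosomal protein genes, of small nucleolar RNA host genes and of the translated targets lay mostly on opposite sides of 0 in the 2 fractions with the deposited FPKM. With TPM in both fractions the opposite sides held for 50 of 84 ribosomal protein genes, 10 of 24 host genes and 34 of 34 translated targets. Of the 10929 kept genes, 2636 were above and then below 0 with the deposited FPKM and 863 with TPM. Below and then above 0 were 2248 and 4821. The difference between fractions was not tested.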

How the data were processed

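The authors deposited a single table of FPKM for all genes of the polysome profiling experiment. The submitters' processing notes name STAR 2.7, StringTie 2.1.5 and the hg38 build, with no role for each. The annotation, the use of strand and any scaling between libraries are not given in the sources used here. Its 4 columns whose names carry the replicate number 1 belong to no sample listed here and were not used, so no replicate of the comparison was analysed. FPKM were used as deposited. Genes averaging 1 FPKM or more across the WT and K177Q sub-polysome libraries were kept, and log2 ratios were computed with 0.1 FPKM added (Python 3.11.15, pandas 2.3.3, numpy 2.4.6, scipy 1.17.1). The 1.5-fold threshold is the one the study uses for translation efficiency. With 1 library per genotype analysed here no test was made, and calls describe these libraries. The computation of the ratio and its calls was tested on simulated data, which gives no error estimate for these libraries.

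The fragments of the WT library were estimated from 235 genes whose FPKM and transcript length fitted a single fragment. Those of the K177Q library followed from this and from the ratio of 1 fragment's worth, taken from 159 of 1145 genes under 0.1 FPKM that stood in 1 ratio. Counting errors derived from them are approximate and cover counting only. Coding length, transcript length and GC content came from the canonical transcripts of GENCODE release 44, matched by symbol, and start sequences from RefSeq on GRCh38.p14 (starts 250 bases into a window that ends 50 bases after them).

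Genes named in the text are METTL3 and genes the study followed, the 10 highest and 10 lowest mRNAs averaging 10 FPKM or more, the 5 highest and 5 lowest lncRNAs averaging 5 FPKM or more, and for each of 41 gene lists its 2 most abundant members and those with the highest and lowest ratio; other list members were added after their values were seen. Some genes that the rule names are not reported here. The lists, the rule and the comparison were chosen with earlier results of these data known, and after the values were available some pseudogenes and mismatched names were removed from the lists. Alternatives were other pseudocounts (0.01 and 1 FPKM), minimum means (none, 0.1, 5 and 10 FPKM), TPM, equal totals without ribosomal protein genes, size factors, centring and a 2-fold threshold.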

Additional observations from a re-analysis of the deposited data

Results flagged for a closer look

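For 6 gene lists the median log2 ratio of K177Q over WT lay on opposite sides of 0 in the sub-polysome and polysome libraries, by at least 0.1 in each, with the deposited FPKM. With TPM in both fractions only the translated targets among these still did (-0.638 and 0.342). Ribosomal protein genes (0.025 and -0.301) and LINC lncRNAs (0.093 and -0.045) stayed on opposite sides, but not by 0.1 in each. The difference between the fractions was not tested, since 1 library per genotype was analysed in each.

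Cytosolic ribosomal protein genes had a sub-polysome median of 0.2306 and a polysome median of -0.39, and 81 of 84 were above 0 in the first and below 0 in the second. Respiratory chain subunits had 0.1731 and -0.18, with 63 of 76 genes above and then below 0. Small nucleolar RNA host genes had 0.126 and -0.60, with 19 of 24. Antisense lncRNAs had 0.1198 and -0.25, with 64 of 163, and intergenic LINC lncRNAs had 0.2935 and -0.13, with 36 of 90. Over all kept lncRNAs 206 of 482 were above and then below 0, and over all kept genes 2636 of 10929. The study's translated METTL3 targets had -0.4456 and 0.25, with 31 of 34 below and then above 0, against 2248 of 10929 kept genes. This list was chosen by the study on the ratio of these fractions. With TPM in the sub-polysome libraries, the medians of the respiratory chain (-0.03), small nucleolar RNA host (-0.08) and antisense (-0.08) lists fall below 0 as well. With TPM in both fractions, 50 of 84 ribosomal protein genes, 21 of 76 respiratory chain subunits, 10 of 24 host genes, 46 of 163 antisense and 29 of 90 intergenic lncRNAs were above and then below 0, and 34 of 34 translated targets were below and then above 0. Of the 10929 kept genes, 863 were above and then below 0 with TPM, and 4821 below and then above. Of the 482 kept lncRNAs, 138 were above and then below 0.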

How the results depend on the processing

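No paired analysis was possible because the listed samples give each genotype 1 library in each fraction, and the columns numbered replicate 1 match no listed sample. Both counts were recomputed under 11 other settings and 2 more chosen after seeing the data (no pseudocount, and mRNAs only), the median of all genes under 11 of these and the medians of ribosomal protein genes and lncRNAs under 10. These 2, the 0.01 FPKM pseudocount, size factors and centring kept both counts within 1.5 times. The genes higher, 468, and lower, 314, became 302 and 104 with a pseudocount of 1 FPKM, 1418 and 1352 with no minimum mean, 1100 and 952 with a minimum of 0.1 FPKM, 195 and 55 with 5 FPKM, 141 and 18 with 10 FPKM, 222 and 1031 with TPM, 225 and 1002 with totals made equal after setting ribosomal protein genes aside, and 120 and 50 at 2-fold. The median of all genes moved to 0.039 and 0.068 with minimum means of 5 and 10 FPKM, to -0.205 with TPM and to -0.199 with equal totals. That of ribosomal protein genes moved to 0.025 with TPM and 0.030 with equal totals. That of lncRNAs moved to 0 with no minimum, 0.095 with a minimum of 0.1 FPKM, -0.043 with TPM and -0.038 with equal totals. Of 37 list medians, 18 changed sign with TPM. Of the 181 genes that the rule names and that were recomputed singly, none past 1.5-fold changed sign under any of the 10 settings that apply to single genes, and genes named outside the rule were not recomputed. The 10 highest and 10 lowest mRNAs passed 1.5-fold with TPM and with a pseudocount of 1 FPKM. Both sub-polysome libraries came from replicate 2, so neither biological nor gradient-to-gradient variation can be read from them, and genes under a few FPKM carry the largest counting error.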

Other observations

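The following gene families were chosen after their values were seen, so their counts describe the choice as much as the libraries. Of 11 kept genes of the class II antigen presentation pathway, 8 rose, with a median log2 ratio of 0.66 (0.46 with TPM, 2 higher). CD74, the invariant chain, rose from 721.6 FPKM in WT to 1141 FPKM in K177Q cells, HLA-DRB1 from 68.56 to 110.2 FPKM, and HLA-DPA1 from 39.23 to 59.01 FPKM. The class I heavy chains and B2M had a median of 0.47 (0.27 with TPM), with 0 of 6 past 1.5-fold. Genes of these families are polymorphic and alike in sequence, so the assignment of reads among them is uncertain. Of 8 cystatins, inhibitors of cysteine proteases, 5 rose, with a median of 0.73 (0.52 with TPM, 3 higher). CST1 rose from 5274 to 9156 FPKM and CST3 from 4579 to 7379 FPKM, while CST6 had 33.51 and 29.32 FPKM. Of 21 tetraspanins 8 rose, with a median of 0.47 (0.26 with TPM, 2 higher), among them CD63, from 698.1 to 1182 FPKM, and CD9, from 188 to 314.4 FPKM. In polysomes the class II median was 0.62, the class I median 0.31, the cystatin median 0.30 and the tetraspanin median 0.16.

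A few genes stood far from the rest. C1orf189 had 0.07366 FPKM in WT and 19.31 FPKM in K177Q sub-polysome RNA, and it was at 0 in WT and at 3.406 FPKM in K177Q polysomes. RMRP, the RNA of the RNase MRP complex, fell from 12.46 to 1.031 FPKM and was at 0 in both polysome libraries. FAM25A was listed at 2.229 FPKM in WT and at 0 in K177Q cells, and RFPL4AL1 at 0 and 3.249 FPKM. S100A6, a calcium-binding protein and the most abundant RNA of the comparison, had 41854 and 57979 FPKM.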
